A study of Rattus norvegicus with 18 samples.

Results

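This section describes 7 genes of itaconate, arginine and gluconeogenic metabolism in myeloid cells sorted from rat knee synovium. They were found by symbol in both deposited tables, as 7 of 30643 genes. The rule named 8 symbols, of which Irg1 is an older name of Acod1 and has no row of its own. Acod1, Fbp1 and Ass1 were picked because they were already known to be lower in OA at 4 weeks, so their 4-week values are given as a description without a test. The 12-week libraries came from other rats and were tested.

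Male wild type Sprague Dawley rats, 12 weeks old, underwent either OA surgery, in which the anterior cruciate ligament and the medial meniscotibial ligament were cut, or sham surgery, in which the joint was only opened. At 4 weeks there were 5 OA and 5 sham libraries, each from the pooled synovium of 4 rats. At 12 weeks there were 4 OA and 4 sham libraries, each from a pool of 3 rats. A pool is a single library, so n counts pools and not rats. Cells carrying CD11b/c, an integrin of myeloid cells, were enriched on magnetic beads before total RNA was sequenced. The RNA is from bulk cells, in which fewer cells of a type and less RNA per cell cannot be told apart.

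Acod1 makes itaconate from cis-aconitate, an intermediate of the tricarboxylic acid (TCA) cycle. Macrophages exposed to inflammatory stimuli are known to induce it strongly. Itaconate inhibits succinate dehydrogenase, whose catalytic subunit is Sdha, while Idh1 is the cytosolic enzyme that oxidizes isocitrate. Ass1 and Asl rebuild arginine from citrulline, the by-product left when Nos2 makes nitric oxide from arginine. Fbp1 removes a phosphate from fructose 1,6-bisphosphate, a control step of gluconeogenesis that runs against glycolysis.

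The identifiers in the tables are ENSRNOG00000009919 for Acod1, ENSRNOG00000015020 for Idh1, ENSRNOG00000013331 for Sdha, ENSRNOG00000008837 for Ass1, ENSRNOG00000000903 for Asl, ENSRNOG00000057443 for Nos2 and ENSRNOG00000017597 for Fbp1. Promoters of Acod1, Ass1 and Fbp1 are shown because these 3 genes were lower in OA together at 4 weeks. Each sequence is the gene strand from 250 bases before to 50 bases after the RefSeq start, in the GRCr8 assembly, which is not the Rnor_6.0 assembly of the tables. RefSeq held such a sequence for 6 of the 7 genes. The window lies, for Acod1, at chr15:86286289-86286588 on the plus strand, Ass1 at chr3:35149480-35149779 on the plus strand and Fbp1 at chr17:2213457-2213756 on the plus strand. Capitals mark the motif matches.
Acod1: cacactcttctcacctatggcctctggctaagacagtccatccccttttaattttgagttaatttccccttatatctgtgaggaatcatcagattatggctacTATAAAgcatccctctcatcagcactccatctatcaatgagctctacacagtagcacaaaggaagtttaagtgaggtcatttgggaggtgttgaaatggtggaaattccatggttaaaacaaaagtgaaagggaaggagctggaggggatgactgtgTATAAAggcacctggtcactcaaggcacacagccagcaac
Ass1: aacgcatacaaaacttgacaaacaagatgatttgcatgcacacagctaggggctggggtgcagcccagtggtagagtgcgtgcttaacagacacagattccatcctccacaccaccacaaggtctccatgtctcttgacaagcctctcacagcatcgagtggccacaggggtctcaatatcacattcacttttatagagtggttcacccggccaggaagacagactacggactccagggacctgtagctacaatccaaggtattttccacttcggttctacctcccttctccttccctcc
Fbp1: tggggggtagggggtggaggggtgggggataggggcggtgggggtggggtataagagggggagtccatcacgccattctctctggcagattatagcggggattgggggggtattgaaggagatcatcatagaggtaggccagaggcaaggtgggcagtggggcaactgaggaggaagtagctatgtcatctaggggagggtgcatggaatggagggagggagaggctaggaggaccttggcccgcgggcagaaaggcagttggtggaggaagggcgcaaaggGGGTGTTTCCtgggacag

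The motifs searched were GGG and CC around 5 bases whose middle base is T for NF-kB, GAAA repeated after a gap of 2 bases for the core of the interferon-stimulated response element, TTCNNNGAA for STAT factors, TGANTCA for AP-1 and TTGCNNAA for C/EBP, each on both strands, and TATAAA on the gene strand. Acod1 held TATAAA at 147 bases before the start and at base 11 after it. Of 33469 RefSeq promoters of this length, 8.80% held that motif. Fbp1 held a match to the NF-kB letters at base 33 after the start, a motif found in 17.3% of promoters. Idh1, whose levels in OA and sham overlapped at both weeks, also held an NF-kB match, at base -249 from the start on the opposite strand. Ass1 held none of the motifs. These matches describe letters in the window and not binding.

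Depth ranged from 4662344 to 18080503 recovered reads per library, with the lowest in sham replicate 3 of 4 weeks. Levels within a week are in normalized reads, the reads divided by a size factor of the library. A floor of 3 reads, taken as the least that can be told from none, was 2.06 to 6.96 normalized reads at 4 weeks and 2.27 to 3.82 at 12 weeks, for counting error only. All 12 macrophage markers were detected, with summed levels of 143517 to 173264 normalized reads in OA and 147519 to 151586 in sham at 4 weeks. Fibroblast markers were also plentiful, at 73456 to 113236 in OA and 49410 to 114187 in sham at 4 weeks. No marker of any of the 10 cell type lists was at 0 in every library. At 4 weeks, the summed markers of T, NK and B cells had a higher mean and those of adipocytes a lower mean in OA (exact permutation p = 0.0476 for each, 0.238 after adjustment over the 10 lists). Of the 10 T, NK and B cell markers, 7 had a mean under 10 normalized reads, so the sum rested on the other 3. Of these 3, 2 were higher and 1 lower in OA, and more cells of these types cannot be read from the sum. At 12 weeks the summed markers of skeletal muscle had a higher mean in OA (exact permutation p = 0.0286, 0.229 after adjustment). The part of these lists in the member values was not tested.

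**Figure D1:**
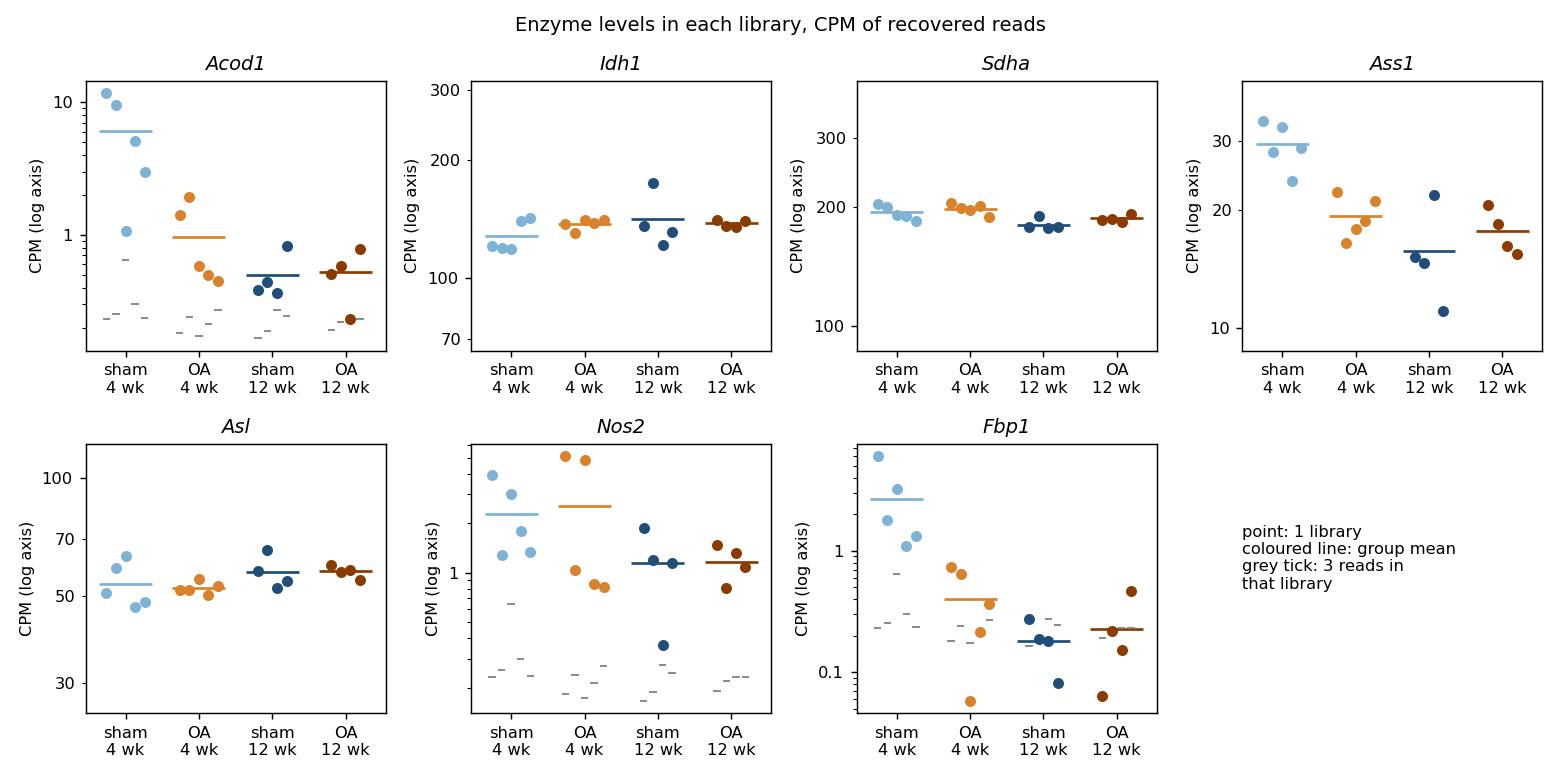
Level of each of the 7 enzymes in every library, as CPM (recovered reads scaled to the same library total, log axis), by surgery and week. Points are libraries, coloured lines group means and grey ticks 3 reads in that library. Sham libraries of 4 weeks stood above the other groups for Acod1 (except replicate 3), Ass1 and Fbp1.

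Acod1 was low in all libraries and highest in sham at 4 weeks. Its level in OA at 4 weeks was 15.9, 22.9, 6.87, 5.82 and 5.42 normalized reads in replicates 1 to 5, from 23, 24, 10, 7 and 5 reads. In sham it was 139, 109, 11.6, 59.8 and 35.0, from 151, 112, 5, 51 and 38 reads. Of the 5 sham libraries, 4 lay above every OA library. Sham replicate 3, the shallowest library, lay between the OA libraries, and its 11.6 normalized reads rested on 5 reads. Mean level was 11.4 ± 7.74 in OA and 70.8 ± 52.4 in sham (SD, n = 5 each), which is 6.22-fold higher in sham. The log2 fold change was -2.31 (SE 0.61) on the log2(normalized reads + 1) scale. Leaving out each library in turn gave -2.83 to -1.96.

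At 12 weeks Acod1 rested on 3 to 10 reads per library. Its level was 6.98, 8.17, 3.22 and 10.7 normalized reads in OA, and 5.29, 6.02, 5.09 and 11.5 in sham. The groups overlapped throughout. Acod1 fell under the mean of 10 normalized reads needed for the test, so the reads are given instead. They summed to 29 in OA and 28 in sham, a ratio of 1.07 after scaling for depth, with a 95% counting interval of 0.616 to 1.87. The interval covers counting error only and not the spread between pools.

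Fbp1 showed the same order of groups at 4 weeks, at a still lower level. Its level was 8.32, 7.62, 0.687, 2.49 and 4.34 normalized reads in OA, from 12, 8, 1, 3 and 4 reads. In sham it was 71.8, 20.4, 34.8, 12.9 and 15.7, from 78, 21, 15, 11 and 17 reads. Every sham library lay above every OA library, with 12.9 in the lowest sham and 8.32 in the highest OA library. The mean was 4.69 ± 3.27 in OA and 31.1 ± 24.3 in sham, which is 6.63-fold higher in sham. The log2 fold change was -2.46 (SE 0.56). Fbp1 passed the mean filter at 4 weeks through its sham level.

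At 12 weeks Fbp1 was at or under the 3-read floor in 3 of 4 libraries of each group. Its reads were 1, 3, 2 and 6 in OA and 5, 3, 2 and 1 in sham. A difference was not detectable at this depth. The ratio of the summed reads was 1.13 after scaling for depth, with a counting interval of 0.456 to 2.83.

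Ass1 was the only one of the 3 genes expressed well above the floor in every library. Its level at 4 weeks was 252, 196, 212, 218 and 253 normalized reads in OA, and 401, 320, 350, 278 and 338 in sham. The groups did not overlap. The mean was 226 ± 25.3 in OA and 337 ± 45.1 in sham, 1.49-fold higher in sham, with a log2 fold change of -0.57 (SE 0.11). Fbp1 and Ass1 were thus the 2 genes without overlap at 4 weeks. Among all genes tested, groups did not overlap in 1.87% at 4 weeks, 1.18% with OA higher and 0.693% with OA lower, and nothing is read from this since these genes were chosen on that contrast.

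At 12 weeks the order of Ass1 in OA and sham was not kept. Its level was 282, 257, 225 and 212 normalized reads in OA and 208, 200, 305 and 155 in sham. Limma gave a log2 fold change of 0.20 (SE 0.18, 95% interval -0.21 to 0.61, adjusted p = 0.655). The exact permutation p was 0.400, and the smallest that 4 against 4 libraries can give is 0.0286. The value was 0.38 without sham replicate 3 and 0.06 without sham replicate 4. Sham replicate 3, the library with the highest Ass1, also had the lowest macrophage marker sum of the 8 libraries of 12 weeks, at 158161 normalized reads, and the highest endothelial marker sum, at 55444. With group means removed, Ass1 and the macrophage sum gave Pearson r = -0.764 over 18 libraries (permutation p = 0.00859). With the endothelial sum r was 0.589 (permutation p = 0.0449). Adjusted over 70 gene and list relations, the permutation p was 0.112 and 0.286. Without the 2 libraries farthest from the median marker sum, with group means taken again, r was -0.476 and 0.179. At 12 weeks alone r was -0.844 and 0.866, at 4 weeks -0.542 and 0.195. The part of these cells in the Ass1 level was not tested.

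**Figure D2:**
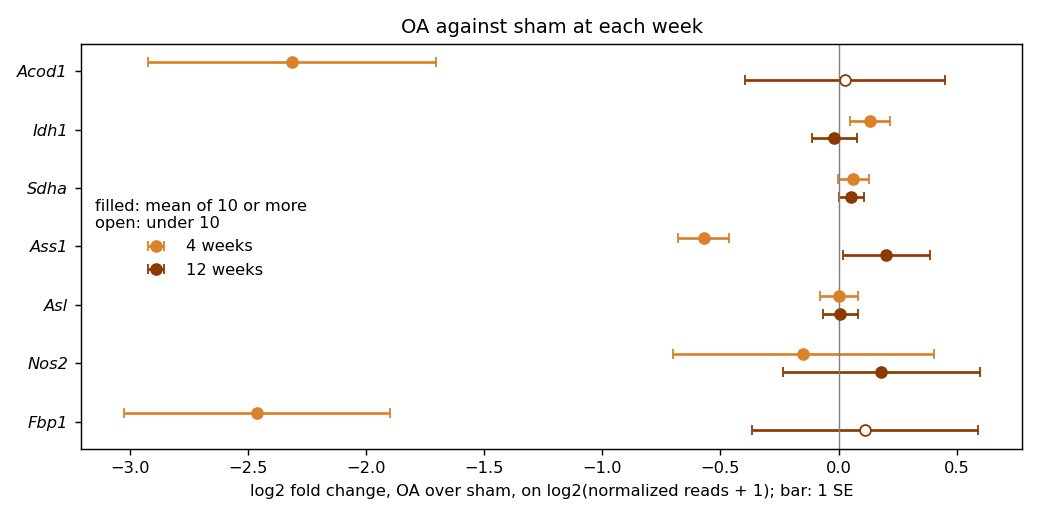
Log2 fold change of OA over sham for each enzyme at 4 and 12 weeks, with 1 SE, on log2(normalized reads + 1). Open points had a mean under 10 normalized reads. Acod1, Fbp1 and Ass1 lay below 0 at 4 weeks and at or above 0 at 12 weeks.

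Asl, the enzyme that follows Ass1, overlapped between OA and sham at both weeks. Its level at 4 weeks ranged from 587 to 653 normalized reads in OA and from 548 to 685 in sham, with a log2 fold change of 0.00 (SE 0.08) in limma and -0.02 with TMM scaling. At 12 weeks it ranged from 756 to 824 in OA and from 733 to 895 in sham. The 12-week log2 fold change was 0.01 (95% interval -0.15 to 0.17, limma adjusted p = 0.966).

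The other enzymes around itaconate were abundant, and OA and sham overlapped at both weeks. Idh1 ranged from 1551 to 1682 normalized reads in OA and from 1284 to 1673 in sham at 4 weeks, with a log2 fold change of 0.13 (SE 0.08). At 12 weeks Idh1 ranged from 1882 to 1927 in OA and from 1699 to 2387 in sham, with a log2 fold change of -0.02 (95% interval -0.23 to 0.19, limma adjusted p = 0.946). Sdha ranged from 2271 to 2377 in OA and from 2075 to 2426 in sham at 4 weeks, with a log2 fold change of 0.06 (SE 0.07). At 12 weeks Sdha ranged from 2552 to 2656 in OA and from 2438 to 2589 in sham, with a log2 fold change of 0.05 (95% interval -0.06 to 0.17, limma adjusted p = 0.680).

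At 12 weeks, then, 5 of the 7 genes were tested and none was called. No member had OA and sham groups without overlap. Limma called 0% of all 14666 genes at that week, with 12.4% at an unadjusted p under 0.05, and DESeq2 called 0.682%. Groups did not overlap in 6.29% of genes, with OA higher in 2.85% and lower in 3.44%.

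Nos2 varied more between libraries than between groups. At 4 weeks its level was 58.2, 12.4, 57.7, 9.97 and 9.76 normalized reads in OA and 47.0, 14.5, 32.5, 21.1 and 15.7 in sham. OA replicates 1 and 3 were the highest of the 10 libraries, and the other 3 OA libraries were below every sham library. The mean was higher in OA, at 29.6 ± 25.9 against 26.1 ± 13.6, while the log2 fold change was -0.15 (SE 0.55) in limma and 0.22 in edgeR, so its direction depended on the scale. At 12 weeks the level was 20.1, 11.2, 18.2 and 15.01 in OA and 25.7, 16.3, 5.09 and 16.1 in sham. The log2 fold change was 0.18 in limma (95% interval -0.75 to 1.11, adjusted p = 0.871) and -0.01 in edgeR, and the interval held changes of over 0.5 in either direction.

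The same 2 OA libraries stood apart in neutrophil markers. For 8 of 12 markers, OA replicates 1 and 3 were the 2 highest of the 10 libraries of 4 weeks. S100a8, a marker of the list, was at 2488 and 3108 normalized reads in them and at 115 to 879 in the other 8. Mmp8, a neutrophil collagenase, was at 1407 and 1529 against 56.5 to 454. For Elane, Ltf, Csf3r and Mmp9, these libraries were not the 2 highest. Mmp9 was at 910 and 600 against 182 to 1392, and Csf3r at 697 and 545 against 288 to 675. Elane was at 27.0 and 12.4 against 0.831 to 18.6, and Ltf at 6.93 and 4.12 against 1.91 to 34.8. With group means removed, log2 levels of Nos2 and of the marker sum over 18 libraries gave Pearson r = 0.778 (permutation p = 0.0112) and Spearman rho = 0.7503 (permutation p = 0.0114). This was 1 of 70 relations between the 7 genes and 10 lists, chosen after the values were seen, and the adjusted p was 0.112 for r and 0.206 for rho. Within weeks r was 0.906 at 4 weeks and 0.378 at 12 weeks. Without OA replicates 1 and 3, and with the group means taken again, r was 0.429 (permutation p = 0.233), and with the original group means kept it was 0.623. Without replicate 1 alone r was 0.715, and without replicate 3 alone 0.7098. None of the 70 relations passed after adjustment. The lowest adjusted p, 0.0854 for r and 0.136 for rho in the permutation test, was shared by Ass1 with classical monocyte markers (r = -0.735, rho = -0.703) and Acod1 with endothelial markers (r = -0.631, rho = -0.674). The part of neutrophils in the Nos2 levels was not tested.

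**Figure D3:**
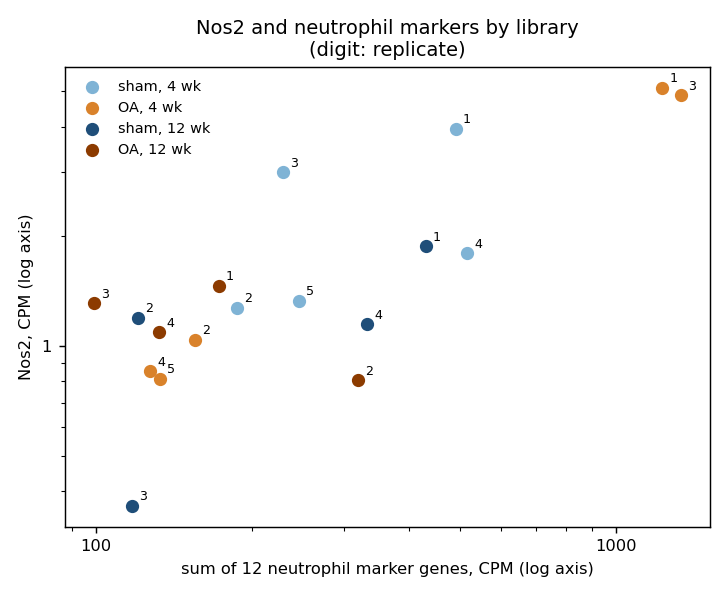
Nos2 level against the summed level of 12 neutrophil marker genes in the 18 libraries, both as CPM on log axes, with the replicate number beside each point. OA replicates 1 and 3 of 4 weeks lie apart at the upper right.

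Levels were also set side by side across weeks as CPM, the recovered reads scaled to the same library total. Week coincides with the time since surgery, the age of the rats and the number of rats per pool, which cannot be told apart. No p-value is given because the sham libraries of 4 weeks were part of the choice of genes. Every sham library of 4 weeks lay above all 13 other libraries for Ass1, at 23.7 to 33.7 CPM against 11.1 to 22.2. The same held for Fbp1, at 1.10 to 6.03 CPM against 0.0580 to 0.731. For Acod1 it held for 4 of 5. For Asl, Nos2, Idh1 and Sdha it held for 0 of 5. The share of all genes with this order was not counted. Acod1, Fbp1 and Ass1 were chosen for higher sham levels at 4 weeks, so nothing is read from these counts.

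The mean CPM of sham was higher at 4 than at 12 weeks, 12.1-fold for Acod1 and 1.87-fold for Ass1. The Acod1 fold is imprecise, since sham libraries held 4 to 10 reads at 12 weeks and ranged from 1.07 to 11.7 CPM at 4 weeks. The mean CPM of OA was 1.84-fold and 1.09-fold higher at 4 weeks for the same genes. No fold is given for Fbp1, which was at or under the 3-read floor in most libraries of 12 weeks. On log2 CPM with TMM scaling, the difference of sham at 12 weeks minus sham at 4 weeks was -2.84 (SE 0.54) for Acod1 and -0.87 (SE 0.15) for Ass1. In OA the differences were -0.56 (SE 0.54) and -0.07 (SE 0.15). These values hold the 4-week levels that chose the genes and are a description.

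Genes that surround these enzymes were described from 5 lists of genes grouped by function, none holding a member. The lists were chosen with earlier results of these data known, so their shares are a description. Of 92 genes, 80 were tested at 4 weeks and 79 at 12 weeks, and limma called 0 of them at either week. At an unadjusted p under 0.05, 6 of 80 (7.5%) passed at 4 weeks, where 7.92% of all genes did, 4.1% higher and 3.82% lower in OA. At 12 weeks 13 of 79 (16.5%) passed, where 12.4% of all genes did, 5.75% higher and 6.62% lower in OA. DESeq2 called 0 genes of the lists at 4 weeks, where it called 0.209% of all genes, and 1 at 12 weeks. OA and sham did not overlap in 1 of the 80 genes at 4 weeks, beside 1.87% of all genes. At 12 weeks they did not overlap in 3 of the 79 genes, beside 6.29% of all genes. The gene at 4 weeks was Acly, of the TCA cycle list, and those at 12 weeks were Acly, Oat and Hmox1.

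In the TCA cycle and itaconate breakdown list, 1 of 20 genes passed the unadjusted threshold at each week, Mdh1, the cytosolic malate dehydrogenase. Its log2 fold change was 0.14 (SE 0.06) at 4 weeks and 0.18 (SE 0.08) at 12 weeks (limma adjusted p = 0.616 and 0.391). The median over the list was 0.07 at each week, beside 0.03 and -0.01 over all genes. In the arginine list, 2 genes were higher and 1 lower of 22 at 4 weeks, and 1 higher and 2 lower of 21 at 12 weeks, at the same threshold. The list median was 0.02 and -0.10. Slc7a2, an arginine importer of the cell surface, was at 579, 687, 553, 572 and 540 normalized reads in OA and 1277, 864, 627, 722 and 691 in sham at 4 weeks. One OA library, replicate 2, lay within the sham range. The log2 fold change of Slc7a2 was -0.47 (SE 0.16) at 4 weeks and -0.39 (SE 0.13) at 12 weeks (limma adjusted p = 0.570 and 0.317). Oat, which turns ornithine toward proline and glutamate, had a log2 fold change of 0.20 (SE 0.08) at 4 weeks and 0.14 (SE 0.06) at 12 weeks, where OA and sham did not overlap (limma adjusted p = 0.577 and 0.374). Slc7a7, a carrier that exports arginine, had a 4-week value of 0.15 (SE 0.07). Gch1, which starts the synthesis of the Nos2 cofactor tetrahydrobiopterin, had a 12-week value of -0.28 (SE 0.12).

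**Figure D4:**
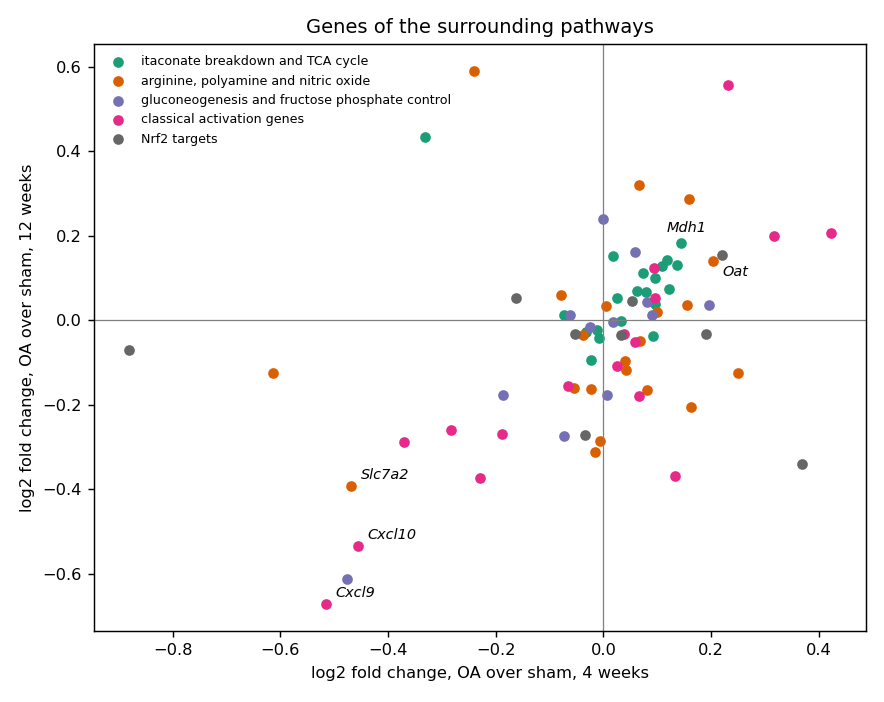
Log2 fold change of OA over sham at 4 weeks (x axis) and 12 weeks (y axis) for the pathway genes tested at both weeks, coloured by list. Labelled genes had an unadjusted limma p under 0.05 with the same sign at both weeks.

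In the gluconeogenesis and fructose phosphate list, 0 of 12 genes passed the unadjusted threshold at 4 weeks, and 2 were higher and 2 lower at 12 weeks. The list median was 0.00 at each week. Pc, the pyruvate carboxylase that opens gluconeogenesis, had a 12-week log2 fold change of 0.24 (SE 0.09), and Pfkl, a phosphofructokinase of glycolysis, one of 0.16 (SE 0.06). Pfkfb1 and Pfkfb3, which set the level of the Fbp1 inhibitor fructose 2,6-bisphosphate, had values of -0.61 (SE 0.23) and -0.27 (SE 0.11). The limma adjusted p of these 4 genes was 0.349 to 0.378. Fbp2, Pck1 and G6pc were under the mean filter at both weeks.

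In the classical activation list, 2 of 17 genes passed the unadjusted threshold as lower at 4 weeks, and 1 as higher and 3 as lower at 12 weeks. The list median was 0.04 and -0.15. Cxcl10, an interferon-induced chemokine, was at 485, 655, 506 and 456 normalized reads in OA and 844, 882, 619 and 700 in sham at 12 weeks. It was the gene called by DESeq2, with an adjusted p of 0.0432, while limma gave a log2 fold change of -0.53 (SE 0.14) and an adjusted p of 0.278. Its 4-week value was -0.46 (SE 0.14, limma adjusted p = 0.511). Cxcl9, a related chemokine, had values of -0.51 (SE 0.19) at 4 weeks and -0.67 (SE 0.18) at 12 weeks (limma adjusted p = 0.575 and 0.278). Nlrp3, an inflammasome sensor, had a 12-week value of 0.21 (SE 0.09). Tnf, Il12b and Il23a were under the mean filter at both weeks.

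In the list of targets of Nrf2, a factor that itaconate is known to activate, 0 of 9 genes passed the unadjusted threshold at 4 weeks and 1 at 12 weeks, with list medians of 0.03 and -0.03. Hmox1, which breaks down heme, was at 2796, 3149, 2829 and 2561 normalized reads in OA and 3299, 4019, 3363 and 3682 in sham at 12 weeks, with no overlap. The change of -0.34 (SE 0.09, log2) was under the fold minimum of 0.5, and the adjusted p was 0.278 in limma and 0.0367 in DESeq2. Across the 5 lists, Mdh1, Slc7a2, Oat, Cxcl9 and Cxcl10 had an unadjusted p under 0.05 with the same sign at both weeks. That is 5 of 79 genes (6.33%), beside 2.30% of all genes, in lists chosen with earlier results known.

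Acod1, Fbp1 and Ass1 were compared with each other after the group means were removed, which takes out the difference that chose them. Over 18 libraries Pearson r was 0.315 for Acod1 and Fbp1, -0.165 for Acod1 and Ass1 and 0.263 for Fbp1 and Ass1. Permutation p was 0.299, 0.481 and 0.240, and 0.449 to 0.481 after adjustment over the 3 pairs. Spearman rho was 0.313, -0.156 and 0.232 (permutation p = 0.274, 0.56 and 0.378). Within weeks r was 0.38, -0.044 and 0.598 at 4 weeks and 0.071, -0.44 and -0.048 at 12 weeks. Without the 2 libraries farthest from the median of the first gene, and with the group means taken again, r was 0.446, -0.327 and 0.071. Leaving out each library gave r of 0.121 to 0.554 for Acod1 and Fbp1 (permutation p = 0.0615 to 0.672). The 0.554 came without sham replicate 3 of 4 weeks. The range was -0.359 to -0.044 for Acod1 and Ass1 and 0.125 to 0.393 for Fbp1 and Ass1. Within groups, no relation between the 3 genes was detected. Acod1 and Fbp1 rested on few reads at 12 weeks, so a relation could be missed.

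The genes whose group-centred levels were most like those of Acod1, of 14415 compared over 18 libraries, were Id2 (r = 0.910), Sirt7 (0.907), Gsap (0.901), Lrrfip2 (0.896) and Sgms2 (0.878). For Ass1 they were Bzw2 (0.835), Ssuh2 (0.797), Cacna1i (0.761), Cldn11 (0.761) and LOC100361636 (0.760). For Fbp1 they were Ikzf5 (0.815), Ap5s1 (0.741), Eno1 (0.735), Scd (0.730) and Ifngr2 (0.729). Fbp1 was at or under the 3-read floor in 2 OA libraries of 4 weeks and in 3 of 4 libraries of each group at 12 weeks. Acod1 rested on 3 to 10 reads per library at 12 weeks. Counting error is therefore large in the values of both genes. Without sham replicate 3 of 4 weeks, the 5 genes named ranked 2, 1, 3, 6 and 18 for Acod1, 3, 7, 15, 10 and 31 for Ass1, and 4, 17, 38, 27 and 5 for Fbp1. These are descriptions across libraries that share preparation and differ in depth, with no p-value.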

How the data were processed

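RNA of CD11b-sorted synovial cells was sequenced in 18 libraries, grouped by surgery and week from the labels. Per the labels and methods, the authors checked read quality with fastp 0.20.0, aligned reads with STAR 2.7.6a to Rnor_6.0, removed duplicates, counted with featureCounts 2.0.0 and normalized with DESeq2 1.24.0 within each week. The values the authors deposited are a signal in units of normalized reads. The authors' log2 fold changes, p-values and test score, also deposited, were not used. Every normalized value was a whole multiple of a single read (tolerance 0.01), so reads were recovered.

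OA was compared with sham within each week in limma 3.58.1 (R 4.3.3) with a mean-variance trend, on log2(normalized reads + 1), for genes with a mean of at least 10, with Benjamini-Hochberg adjustment over all genes tested. A call needed an adjusted p under 0.05 and a log2 fold change of at least 0.5. edgeR 4.0.16 and DESeq2 1.42.0 on recovered reads, TMM scaling, other pseudocounts and filters, a replicate block and leaving out each library were alternatives. Correlations used 100000 permutations within groups. The members and lists were chosen with earlier results of these data known. Named pathway genes are those called by limma or DESeq2 and, per list and week, at most 2 that rose and 2 that fell furthest at an unadjusted p under 0.05. Acly is also named, for its lack of overlap at both weeks. The fits were tested on simulated data. Replicates differed beyond sampling noise (chi-square per degree of freedom 5.84 to 38.8 over 32 pairs).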

Additional observations from a re-analysis of the deposited data

Results flagged for a closer look

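Of 28 groups of libraries examined for a value far from the rest, 1 held such a value, and about 1 in 20 groups would by chance. Acod1 in sham replicate 4 of 12 weeks was at 11.5 normalized reads, from 10 reads, while the other 3 sham libraries were at 5.09 to 6.02. Its gap to the next library was 0.855 of the range of the group.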

How the results depend on the processing

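The number of genes called was 0 in limma at each week, 31 at 4 weeks and 100 at 12 weeks in DESeq2, and 1 at 4 weeks with the replicate block. Leaving out each library gave 0 to 1 calls at 4 weeks, where the 1 came without sham replicate 3, and 0 to 81 at 12 weeks, where 81 came without sham replicate 3 and 1 without sham replicate 4. The cause was not tested. Replicate numbers mark pools of different rats, and the libraries were treated as unpaired. At 4 weeks same-numbered libraries correlated at -0.13 to 0.08 and differently numbered ones at -0.38 to 0.35. There 0 of 10 libraries correlated best with their own number. At 12 weeks the ranges were -0.03 to 0.30 and -0.22 to 0.22, and 2 of 8 libraries did. The highest 12-week value was that of the libraries numbered 3. Sharing of steps by number was not tested.

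Acod1, Fbp1 and Ass1 kept a negative log2 fold change at 4 weeks under every alternative that gave them a value. Acod1 and Fbp1, with means of 41.1 and 17.9 normalized reads, had no value under the filter of a mean of at least 50. They were chosen as lower in OA in these same libraries, so the kept sign is a description and not support. Values near 0 changed sign. Asl at 4 weeks was -0.022 with TMM scaling, -0.024 in edgeR and -0.017 in DESeq2, and -0.037 to 0.043 without each library, and at 12 weeks -0.030 to 0.066. Nos2 at 4 weeks was 0.22 in edgeR and 0.18 in DESeq2, and -0.50 to 0.11 without each library. Nos2 at 12 weeks was -0.014 in edgeR, and -0.25 to 0.46 without each library. Idh1 at 12 weeks was -0.079 to 0.084 without each library. The cause was not tested. The relation of Nos2 to neutrophil markers fell from 0.778 to 0.429 without OA replicates 1 and 3 of 4 weeks. Taking the group means again for that value was chosen after both versions, 0.429 and 0.623, were seen. Few reads limit Acod1 and Fbp1.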
